A study of Homo sapiens with 2 samples.

Results

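The genes described here encode the nuclear subunits of oxidative phosphorylation, measured in the human lung cancer cell line HCC15, which the labels class as squamous. They were chosen by name, from probe sets annotated to 1 gene. The symbol had to begin with NDUFA, NDUFB, NDUFC, NDUFS, NDUFV, UQCR, COX4 to COX8 or ATP5. SDHA, SDHB, SDHC, SDHD, CYC1 and COXFA4L3 (formerly C15orf48) were named as well. No probe set was annotated to SDHB alone, so SDHB is absent from the set. The rule gave 175 of the 54675 probe sets on the array and 92 of 19775 named genes, spread over 22 chromosomes. The genes were 78 subunits of complexes I to V, 8 assembly factors of complex I, the complex V inhibitor ATP5IF1, and 5 transcripts caught by the prefixes alone, of which 2 are pseudogenes and 3 are noncoding.

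The study compared 1 HCC15 culture given CTNNB1 siRNA, which targets the beta-catenin transcript, with 1 HCC15 culture given control siRNA. Cells were collected 48 h after transfection from medium with 5% serum, and each culture was hybridised to 1 Affymetrix array. The title of the control sample also carries the word Tax, and the target of its siRNA is not stated. Per the series title the question concerns Wnt targets in lung cancer with mutated CTNNB1, a background that both cultures share.

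Oxidative phosphorylation couples the oxidation of NADH and succinate in the inner mitochondrial membrane to ATP synthesis. Complexes I and II pass electrons to ubiquinone, complex III passes them on to cytochrome c and complex IV to oxygen, while complex V uses the proton gradient so formed to make ATP. Complexes I, III, IV and V combine subunits encoded in the nucleus and in mitochondrial DNA, and tumour cells keep this machinery to differing degrees beside glycolysis.

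Values are MAS5 signals, a linear brightness for each probe set, and ratios are log2 of the CTNNB1 siRNA signal over the control siRNA signal. A probe set entered where the mean of its 2 signals reached 49.1, the median of all values, and a gene was represented by its brightest entering probe set. With 1 array per condition there was no replicate and no test, and genes were called only by a size rule of 2-fold. The available error is the pooled SD of log2 ratios between probe sets of 1 gene, which was 0.42 over 5791 genes and 0.32 over the 38 oxidative phosphorylation genes with several entering probe sets. It covers probe set error and not the spread between cultures. The median signal over all probe sets was 46.7 on the CTNNB1 siRNA array and 51.3 on the control array, while log2 ratios over the 12531 genes that entered had a median of 0.15. CTNNB1 itself had a signal of 339 with CTNNB1 siRNA and 1224 with control siRNA (log2 ratio -1.85), and its 3 entering probe sets ran from -1.85 to -0.13, with a median of -0.97, just short of 2-fold.

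All 4 epithelial markers entered, with KRT18 at 12013 and KRT8 at 9259 with CTNNB1 siRNA against 11116 and 8665 with control siRNA. EPCAM read 1417.0 with CTNNB1 siRNA and 1083 with control siRNA, and CDH1 read 594 and 939. Of 6 squamous markers with a probe set 3 entered (SFN, PERP and SOX2), and KRT6A and TP63 were not analysed here. SOX2 was dim and close to the filter, at 41.6 with CTNNB1 siRNA and 60.1 with control siRNA. The basal keratin KRT5 read 9.8 with CTNNB1 siRNA and 34.4 with control siRNA, and it, KRT14 and DSG3 were under the filter. None of 3 leukocyte markers entered, and the 2 of 3 fibroblast markers that did were dim, COL1A2 at 61.4 with CTNNB1 siRNA and 58.1 with control siRNA and DCN at 86.6 and 80.5. Of 4 lung adenocarcinoma markers 3 entered. SFTPC read 190.6 with CTNNB1 siRNA and 107.3 with control siRNA, SFTPB 172.0 and 164.9, and NAPSA 65.6 and 56.2. NKX2-1 was under the filter, at 7.6 with CTNNB1 siRNA and 20.5 with control siRNA. Of 2 endothelial markers 1 entered, PECAM1, dim at 80.8 with CTNNB1 siRNA and 96.4 with control siRNA. In such bulk RNA, fewer cells with a transcript and less of it per cell cannot be told apart.

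The sequences below show the start regions of genes that the results turn on: the 1 gene past 2-fold, the subunit genes with the next highest and the lowest ratios, and the microRNA that shares a transcript with COXFA4L3. Each promoter runs from 250 bases before the start to 50 after it, 5′ to 3′ on the gene's strand, from RefSeq on GRCh38.p14. Capitals mark matches to the motifs searched on both strands: GCGCA and GCGC parted by 1 base of any kind for NRF1 and CCGGAAGT for GABP and other ETS factors, both activators of respiratory genes, AAGATGGC for YY1, and CTTTGAA or CTTTGAT for TCF/LEF factors, the DNA-binding partners of beta-catenin.
COXFA4L3, chr15:45430360-45430659, plus strand: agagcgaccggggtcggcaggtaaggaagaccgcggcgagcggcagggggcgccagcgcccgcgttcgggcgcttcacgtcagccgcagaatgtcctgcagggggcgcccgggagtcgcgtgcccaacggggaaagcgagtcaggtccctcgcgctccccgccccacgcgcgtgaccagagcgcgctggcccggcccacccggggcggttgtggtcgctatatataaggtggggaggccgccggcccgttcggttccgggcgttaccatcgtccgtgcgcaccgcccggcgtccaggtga
UQCR11, chr19:1605413-1605712, minus strand: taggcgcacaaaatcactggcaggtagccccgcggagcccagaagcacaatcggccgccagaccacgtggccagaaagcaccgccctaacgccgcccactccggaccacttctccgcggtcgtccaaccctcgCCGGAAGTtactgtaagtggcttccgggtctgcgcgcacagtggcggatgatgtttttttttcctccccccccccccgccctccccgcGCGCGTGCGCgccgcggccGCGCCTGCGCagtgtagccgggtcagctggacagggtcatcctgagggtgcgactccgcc
SDHD, chr11:112086623-112086922, plus strand: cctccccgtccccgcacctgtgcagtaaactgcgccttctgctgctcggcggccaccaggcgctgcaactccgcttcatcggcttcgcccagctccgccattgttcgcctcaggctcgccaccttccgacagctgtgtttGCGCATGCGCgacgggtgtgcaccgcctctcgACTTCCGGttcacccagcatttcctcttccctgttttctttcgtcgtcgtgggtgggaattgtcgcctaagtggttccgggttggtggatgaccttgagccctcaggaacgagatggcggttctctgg
NDUFA11, chr19:5903741-5904040, minus strand: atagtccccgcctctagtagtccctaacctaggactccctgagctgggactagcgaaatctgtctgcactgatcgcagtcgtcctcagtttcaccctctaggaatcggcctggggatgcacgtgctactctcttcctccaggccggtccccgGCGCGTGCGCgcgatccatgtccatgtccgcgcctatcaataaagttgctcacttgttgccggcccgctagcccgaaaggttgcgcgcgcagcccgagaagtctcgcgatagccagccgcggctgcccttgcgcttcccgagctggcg
NDUFA7, chr19:8321326-8321625, minus strand: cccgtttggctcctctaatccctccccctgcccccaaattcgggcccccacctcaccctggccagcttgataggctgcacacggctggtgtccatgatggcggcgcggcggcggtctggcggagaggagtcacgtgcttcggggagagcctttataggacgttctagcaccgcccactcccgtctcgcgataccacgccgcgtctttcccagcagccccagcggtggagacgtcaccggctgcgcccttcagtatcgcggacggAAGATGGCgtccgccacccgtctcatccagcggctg
The microRNA is shown with its seed, bases 2 to 8, in capitals.
hsa-miR-147b-3p, chr15:45433098-45433118, plus strand: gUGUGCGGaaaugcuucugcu

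UQCR11 and SDHD, the subunit genes with the lowest ratios, each carried NRF1 and ETS matches in this window. NDUFA11 carried an NRF1 match, NDUFA7 a YY1 match, and COXFA4L3 none of the motifs. RefSeq gave 92 promoters for 74 of the 87 genes searched (the pseudogenes and noncoding transcripts were left out). Of these promoters 18.5% held the NRF1 motif, against 5.78% of all 35116 promoters, 12.0% held the ETS motif against 4.14%, and 15.2% held the YY1 motif against 2.89%. A TCF/LEF motif in either form stood in 2.17% of them, against 6.86% of all promoters. Both of those matches were in overlapping promoters of NDUFA5. Counted by gene and only over entering genes, 22.5% of 71 oxidative phosphorylation genes had an NRF1 match, against 12.9% of 10212 genes. No promoter of the set had matches of different motifs that overlapped. The log2 ratios with and without a match were set out by promoter, so a gene counted once for each of its promoters. With several promoters, as 11 genes had, a gene could stand on both sides, as ATP5F1A did for the ETS motif. The 16 promoters of entering genes with an NRF1 match belonged to genes from -0.54 to 0.49, with a median of 0.09. The 73 promoters without one had a median of 0.20. For the ETS motif the medians were 0.09 over 11 promoters with a match and 0.19 over 78 without, and for YY1 the order was the other way, 0.25 over 14 with a match and 0.16 over 75 without. These matches describe letters in a window and not binding.

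Nearly all genes of the set entered, and 1 of them passed 2-fold. Of the 92 genes 86 had an entering probe set. COXFA4L3 was at least 2-fold higher with CTNNB1 siRNA, 1 of 86 where 2.29% of all entering genes were, and 0 of 86 were at least 2-fold lower, where 2.38% of all genes were. At 1.5-fold, 2 genes were higher (COXFA4L3 and the assembly factor NDUFAF4) and 0 were lower, against 11.2% and 7.61% of all genes. Most of the set is bright, and large ratios were rarer among bright genes: of the 1254 genes in the top signal decile, 6.06% were at least 1.5-fold higher and 0.399% lower, and at 2-fold 0.399% were higher and 0.159% lower. Among the 146 entering probe sets, 1 was at least 2-fold higher, where 3.48% of all entering probe sets were. Of the 86 ratios 7 lay further from 0 than the pooled SD of 0.42, where 33.1% of all genes and 19.9% of the top decile did. The 7 were COXFA4L3, NDUFAF4, NDUFAF2, NDUFA7, NDUFA11 and NDUFA5 on the higher side and UQCR11 on the lower side. Of the 51 genes of the set in the top decile, 2 lay further from 0 than the pooled SD. The SD of the log2 ratio over genes was 0.29 in the set, which includes COXFA4L3 at 2.13, and 0.24 in the top decile. The interquartile range ran from 0.06 to 0.27 in the set and from 0.14 to 0.39 in the top decile. Whether the set differs in spread from equally bright genes was not tested.

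The plot of ratios by complex shows each gene and its other probe sets.

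**Figure D1:**
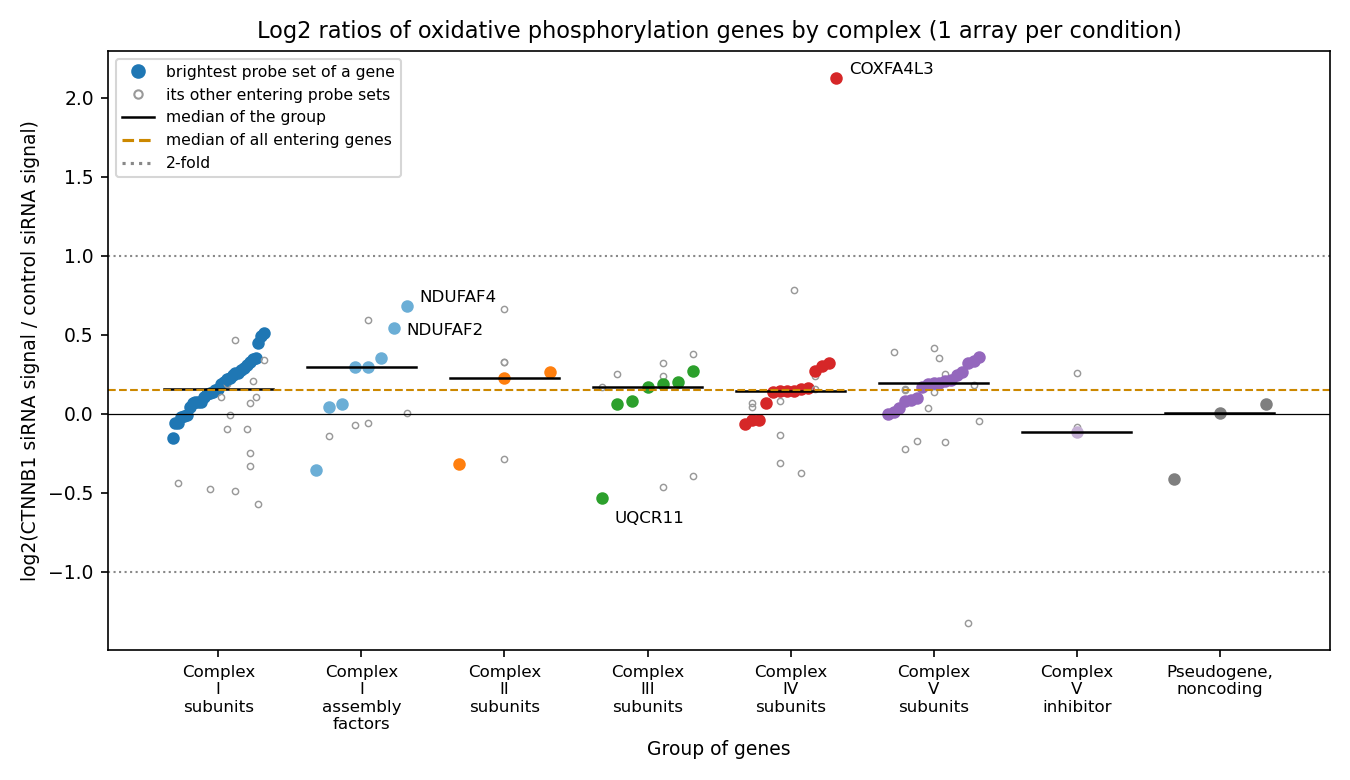
Log2 ratios (vertical axis) of oxidative phosphorylation genes in 8 groups. Filled points are the brightest probe set of each gene, open points its other entering probe sets, black bars group medians, the dashed line the median of all entering genes (0.15) and dotted lines 2-fold. COXFA4L3, at 2.13, is the only filled point past 2-fold.

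As a whole the set was slightly higher on the CTNNB1 siRNA array as deposited, as were most bright genes. The median log2 ratio was 0.16 over the 86 genes, against 0.15 over all entering genes and 0.27 over the top signal decile of all genes. Of the 86 genes, 71 lay above 0 and 14 below it, where 64% of all genes and 89.8% of the top decile lay above 0 and 35.9% of all genes below it. The genes were bright: 51 of 86 fell in the top signal decile, where these 51 had a median of 0.16 against 0.27 for all genes of that decile. After loess, which subtracts a smooth trend of the ratio with signal, 27 of the 86 were above 0 and 59 below it, with a median of -0.08. Of all genes 47.4% were then above 0 and 52.6% below it. In the top decile, 643 of 1254 genes were then above 0 and 611 below it, with a median of 0.003. The sign of the set's median therefore followed the scaling of the arrays, and the cause of the trend with signal was not tested.

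**Figure D2:**
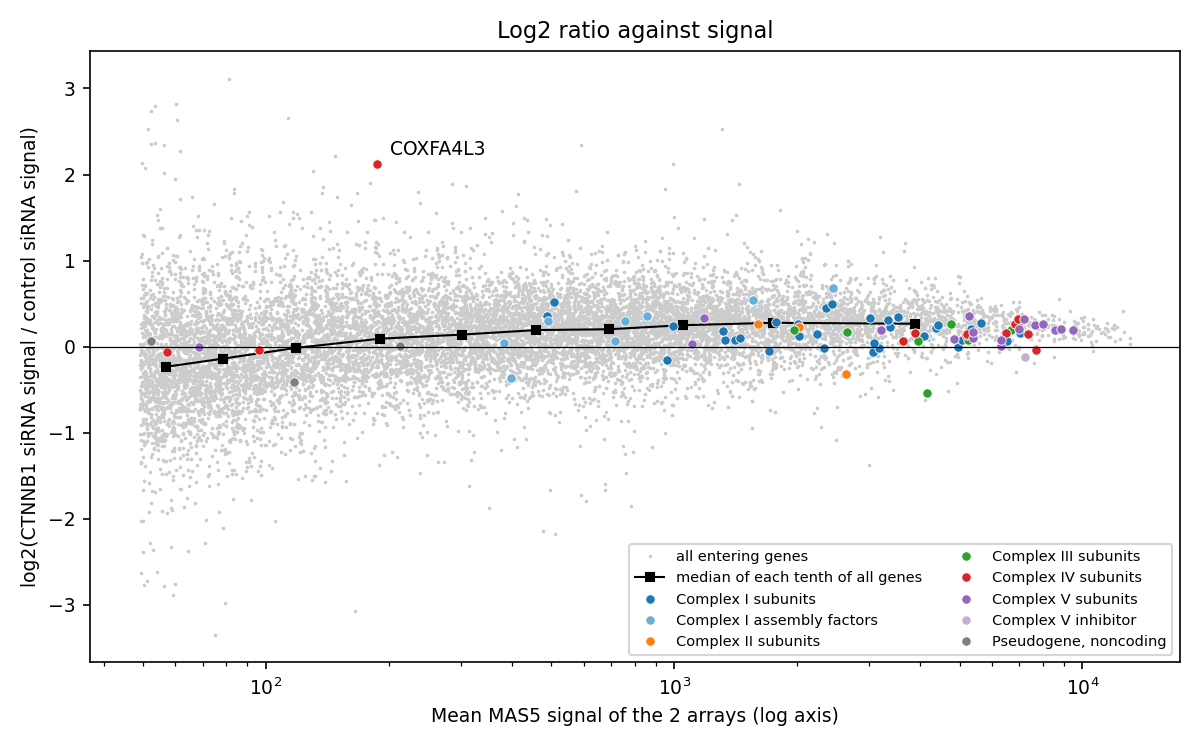
Log2 ratio against the mean signal of both arrays (log axis) for all entering genes (grey), oxidative phosphorylation genes (coloured by group) and the median of each signal decile of all genes (black squares). The decile medians run from -0.23 in the dimmest decile to 0.27 in the brightest, which holds 51 of the 86 genes.

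Complex I, which oxidises NADH, showed no change past the size rule. All 33 of its measured subunit genes entered, with log2 ratios from -0.15 to 0.51 and a median of 0.16. Of these 27 were above 0 and 6 below, where 64% of all genes and 89.8% of the top signal decile were above 0. Loess left 9 of the 33 above 0 and 24 below. The 5 core subunit genes, which hold the flavin and iron-sulphur clusters or frame the ubiquinone site, had a median of 0.05. NDUFV1, which binds the flavin that accepts electrons from NADH, read 3139 with CTNNB1 siRNA and 3041 with control siRNA. NDUFS1, which carries iron-sulphur clusters, read 1676 and 1742, and NDUFV2 read 2310 and 2332. NDUFS3 and NDUFS7, both close to the ubiquinone site, read 5712 and 1074 with CTNNB1 siRNA against 4968 and 906 with control siRNA. By the brightest probe sets, the 2 arrays were thus within 0.06 of each other on the log2 scale for NDUFV1, NDUFS1 and NDUFV2. They were 0.20 and 0.25 apart for NDUFS3 and NDUFS7. A dimmer entering probe set of NDUFS1 read 241.0 with CTNNB1 siRNA and 326.6 with control siRNA (-0.44).

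The 28 accessory subunit genes of complex I ran from -0.15 to 0.51 with a median of 0.17. As deposited 24 were above 0, and 9 after loess. NDUFA7 had the largest ratio, 0.51, with 598 on the CTNNB1 siRNA array and 418 on the control array, and its second, dim probe set read 57.8 and 45.6 (0.34). NDUFA11, a membrane arm subunit, read 2849 with CTNNB1 siRNA and 2027 with control siRNA, and its 2 entering probe sets both gave 0.49. NDUFA5, a subunit of the matrix arm, read 2721 and 1998 (0.45), although its dimmer probe set read 56.2 and 83.6 (-0.57). The brightest member, NDUFA1, read 7420.1 with CTNNB1 siRNA and 6653 with control siRNA (0.16). The lowest was NDUFA3 at 911 and 1013 (-0.15). NDUFA7 and NDUFA11 stayed above 0 in all 10 alternative settings, from 0.30 to 0.65 and from 0.21 to 0.63.

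The assembly factors of complex I, which help build the enzyme but are not part of it, had the highest group median by brightest probe sets. Their 8 log2 ratios had a median of 0.30 and an SD over genes of 0.32, against an SD of 0.16 over the 33 subunit genes, a difference that was not tested. NDUFAF4 read 3006 with CTNNB1 siRNA and 1877 with control siRNA (0.68), yet its second probe set read 347.0 with CTNNB1 siRNA and 345.6 with control siRNA (0.01). NDUFAF2 read 1851 with CTNNB1 siRNA and 1272 with control siRNA (0.54) from its 1 entering probe set. NDUFAF3 went the other way, with 350 and 448 (-0.36). NDUFAF6, NDUFAF7 and NDUFAF8 lay between 0.30 and 0.35, and NDUFAF1 and NDUFAF5 at 0.06 and 0.05. Other entering probe sets gave -0.07 for NDUFAF6, -0.06 and 0.59 for NDUFAF7, and -0.14 for NDUFAF5. With each gene read by the median over its probe sets, the group median was 0.20, under the 0.26 of complex II. This was the only group of the 6 whose median stayed above 0 under all 5 scalings of the arrays.

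Complex II, succinate dehydrogenase, oxidises succinate to fumarate and sends the electrons to ubiquinone. It was represented by 3 genes, since SDHB had no probe set annotated to it alone. SDHA, the flavoprotein, read 1748 with CTNNB1 siRNA and 1457 with control siRNA (0.26). SDHD, the smaller membrane anchor, was lower with CTNNB1 siRNA, at 2346 against 2924 (-0.32), and stayed below 0 in all 10 alternatives, from -0.60 to -0.18. SDHC, the larger anchor, read 2178 and 1861 (0.23). Its 6 entering probe sets ran from -0.28 to 0.66, so that they disagreed among themselves by more than the differences between these genes.

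Complex III passes electrons from ubiquinol to cytochrome c. Of its 7 measured genes 6 lay between 0.06 and 0.27, and UQCR11 lay apart. UQCR11, a small subunit, read 3394 with CTNNB1 siRNA and 4919 with control siRNA, the lowest ratio of the set at -0.54. The probe set with that ratio carries the suffix _s_at, which marks probes that can match several transcripts. The other UQCR11 probe set, dim and without that suffix, read 180 and 160 (0.17), so the 2 disagreed in sign. The ratio was -0.80 after loess. UQCRC2, a core protein, read 5216 with CTNNB1 siRNA and 4330 with control siRNA (0.27), and CYC1, the cytochrome c1 gene, read 2099 and 1828 (0.20). The brightest, UQCRB, read 7125 and 6248 (0.19), with its 4 entering probe sets from -0.46 to 0.32.

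Complex IV, cytochrome c oxidase, reduces oxygen, and its nuclear subunits include isoforms that are used in most tissues or in few. The 10 genes of the broadly used isoforms ran from -0.04 to 0.32 with a median of 0.15. COX6C read 7709.9 with CTNNB1 siRNA and 6167 with control siRNA (0.32), and COX6A1 read 7813 and 6322 (0.31). COX4I1, which takes part in regulating the enzyme by ATP, read 7489 and 6215 (0.27). COX7C, the brightest, read 7564 and 7784 (-0.04). The broad partners of the tissue-restricted isoforms were also close on both arrays: COX6B1 read 4118 with CTNNB1 siRNA and 3677 with control siRNA (0.16), and COX7A2 read 7783 and 7041 (0.14). COX7B read 7723 and 6977 (0.15), with 0.78 from a dim second probe set, and COX8A read 5442 and 4953 (0.14). COX7A2L, which joins complexes III and IV into supercomplexes, read 3723 and 3555 (0.07).

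The tissue-restricted isoforms of complex IV gave dim signals on both arrays, and no change could be read from them. COX4I2, induced by low oxygen, read 94.6 with CTNNB1 siRNA and 97.3 with control siRNA (-0.04), and the heart and muscle isoform COX6A2 read 56.1 and 58.6 (-0.06). The other 4 did not enter. The muscle isoform COX7A1 read 2.7 and 2.8, and the testis isoforms COX6B2, COX7B2 and COX8C read 52.7, 10.9 and 14.2 with CTNNB1 siRNA against 40.3, 30.4 and 15.8 with control siRNA. Without the filter COX7B2 would count as at least 2-fold lower, with a CTNNB1 siRNA signal under the floor of 13.8, to which lower values were set.

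COXFA4L3 was the exception. It is a paralog of COXFA4 (formerly NDUFA4), a subunit of complex IV, and in human cells its small protein can take the place of COXFA4 there. Its only probe set read 304 with CTNNB1 siRNA and 69.7 with control siRNA, 4.37-fold higher, which ranked 16 among the 12531 genes by ratio. The difference of 2.13 on the log2 scale compares with a pooled probe set SD of 0.42, and it ranged from 1.98 to 2.26 over the settings in which the gene entered. With the filter raised to the 75th percentile the gene did not enter, and no second probe set was there to check it. COXFA4 itself, which the naming rule does not cover under its present symbol, read 6270.4 with CTNNB1 siRNA and 5423 with control siRNA (0.21), and the third paralog, COXFA4L2, read 28.8 and 25.7, under the filter. The transcript of COXFA4L3 also holds the hairpin of miR-147b, shown above with its seed, and this microRNA is known in human cells to lower COXFA4. The mature microRNA was not analysed here.

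**Figure D3:**
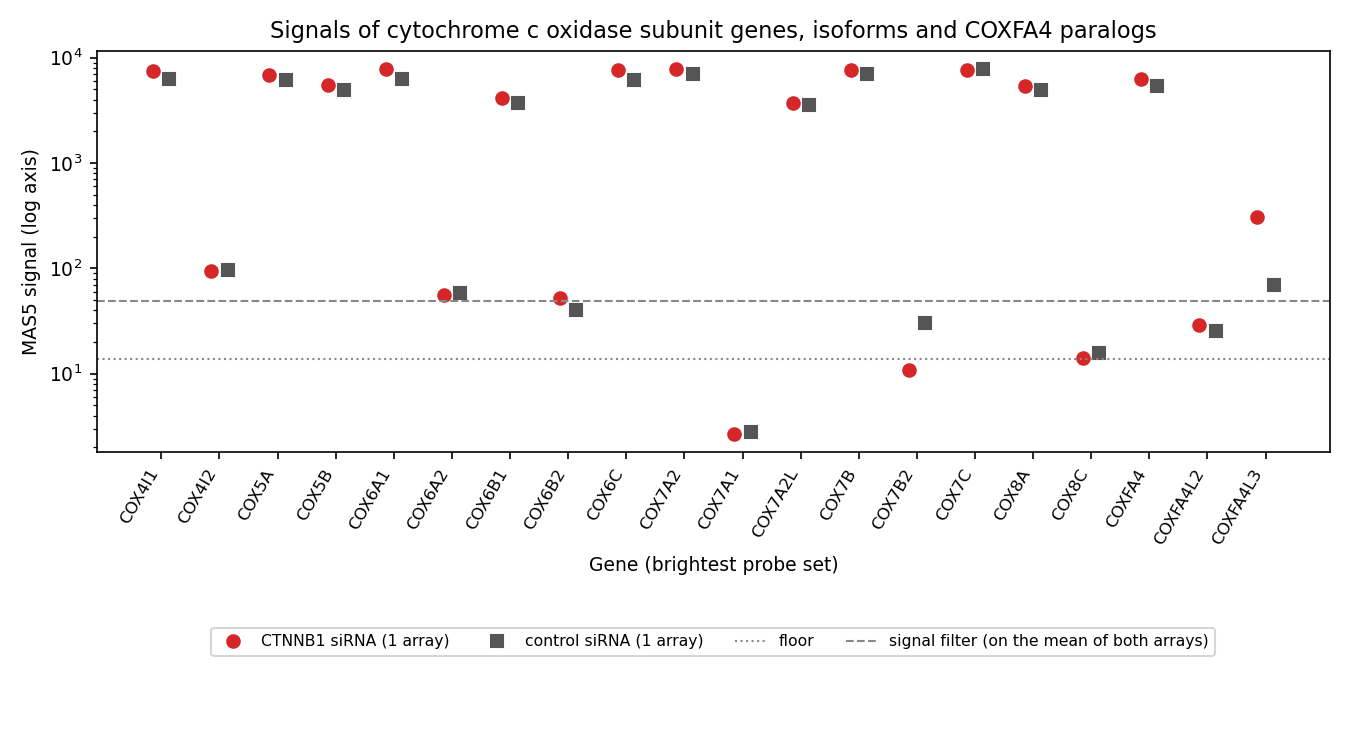
MAS5 signals (log axis) of the brightest probe set of each complex IV gene and of COXFA4 and COXFA4L2, with the CTNNB1 siRNA array (circles) left of the control siRNA array (squares). Signals of different genes are not on a common scale, and the widest gap between the arrays among genes above the filter is at COXFA4L3 (304 against 69.7).

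Complex V, the ATP synthase, had 17 subunit genes, which ran from 0 to 0.36 with a median of 0.20. None was below 0 and none reached 1.5-fold. Above 0 were 64% of all genes and 89.8% of the top signal decile. At 1.5-fold, 11.2% of all genes were higher and 7.61% lower, and 6.06% and 0.399% of the top decile. After loess 6 of the 17 were above 0 and 11 below. The SD over genes was 0.11, the smallest of complexes I to V, but that of complex IV (0.55) includes COXFA4L3 at 2.13. Over the 10 broadly used isoforms of complex IV the SD was 0.10, so a small spread was not particular to complex V. In the catalytic head and central stalk, ATP5F1A read 8325 with CTNNB1 siRNA and 7011 with control siRNA (0.25), ATP5F1B read 9487 and 8195 (0.21), and ATP5F1D read 1321 and 1048 (0.33). The 3 genes of subunit c encode the same mature protein of the rotating ring. ATP5MC2 read 5917 with CTNNB1 siRNA and 4614 with control siRNA (0.36), with -0.04 from a dim second probe set. ATP5MC3 read 7489.6 and 6481 (0.21), with 0.25 and -0.18 from its other probe sets, and ATP5MC1 read 1118 and 1090.0 (0.04). The ratios of the brightest probe sets of the 3 genes differed by less than the pooled probe set SD of 0.42.

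The peripheral stalk genes, whose products hold the head still against rotation, ran from 0.01 to 0.32. ATP5PB was highest among them at 7972 with CTNNB1 siRNA and 6384 with control siRNA (0.32). Its second, dim probe set read 48.3 and 120.9 (-1.32), the only one of the 146 entering probe sets of the set that was at least 2-fold lower, where 2.42% of all entering probe sets were. The membrane accessory subunit ATP5MJ was the brightest gene of the whole set, at 10140.1 with CTNNB1 siRNA and 8844 with control siRNA (0.20). ATP5MF was represented only by a dim probe set, which read 68.7 on both arrays. ATP5IF1, which blocks the reverse reaction of the enzyme, read 6949 with CTNNB1 siRNA and 7542 with control siRNA (-0.12), while its other entering probe sets gave 0.26 and -0.08.

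Probe sets of 1 gene often disagreed in sign. Of the 38 genes with several entering probe sets, 23 had ratios on both sides of 0 and 15 kept to 1 side. In 28 of the 38, the dimmest probe set had a lower ratio than the brightest, with medians of -0.03 for the dimmest and 0.22 for the brightest. Of the 91 entering probe sets with a mean signal of at least 1000, 81 were above 0, and of the 55 under 1000, 26 were above 0 and 28 below. The 2 classes had medians of 0.18 and -0.01, against 0.27 for 4943 bright and 0.09 for 22208 dimmer probe sets of all genes.

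The scaling between arrays decided the sign of most groups. As deposited, medians were 0.16 for complex I, 0.23 for complex II, 0.17 for complex III, 0.15 for complex IV and 0.20 for complex V. After quantile normalization all 5 fell below 0, from -0.11 to -0.01, and after loess they ran from -0.10 to -0.04. The groups moved together with all genes, whose median was 0.29 with a common median, 0.15 as deposited, -0.03 after quantile normalization and -0.02 after loess. Of the 86 genes, 18 stayed above 0 and 4 below 0 in all settings in which they entered, and the signs of the other 64 depended on the setting.

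**Figure D4:**
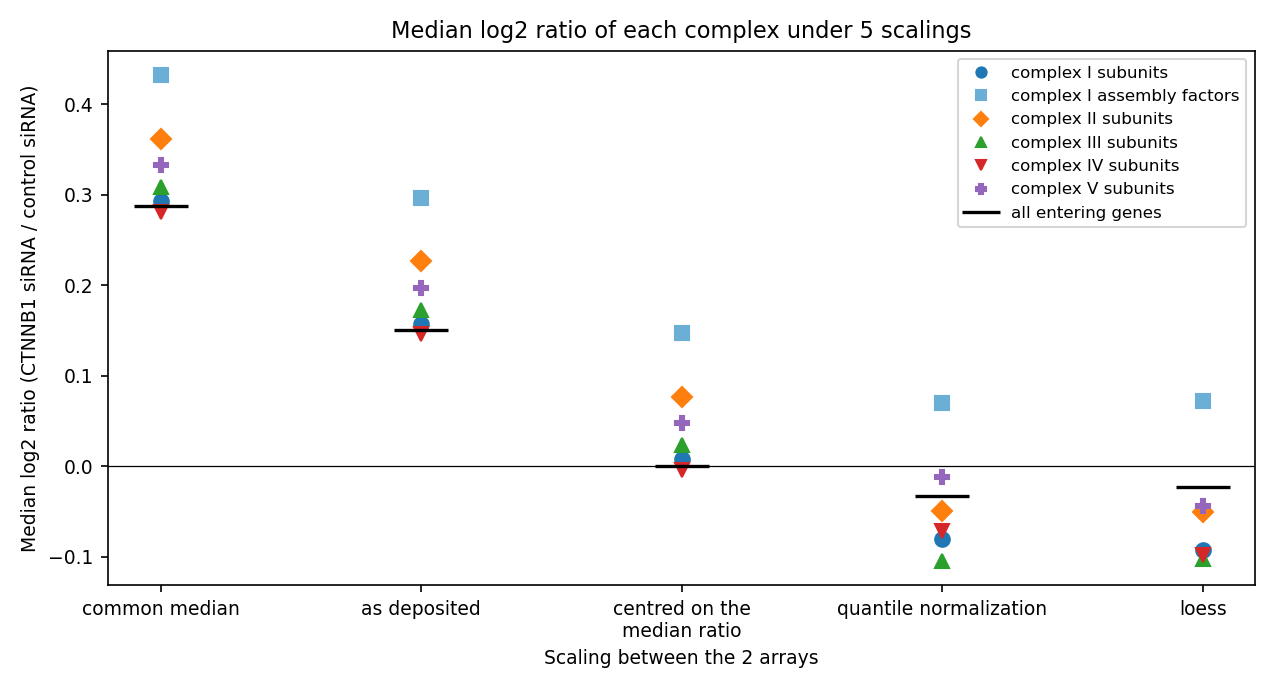
Median log2 ratio (vertical axis) of the 6 groups of genes under 5 scalings of the 2 arrays (horizontal axis), with the median of all entering genes as a bar. The medians of complexes I to V lie above 0 as deposited and below 0 after quantile normalization and loess, and the assembly factors of complex I stay above 0, from 0.07 to 0.43.

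The subunits encoded in mitochondrial DNA lay mostly above 0. Of 13 such genes 7 had a probe set annotated to them alone, and all 7 entered. Of these 6 were above 0 and none passed 2-fold, with a median of 0.24, where 89.8% of the top decile of all genes lay above 0. After loess 3 of the 7 were above 0 and 4 below, with a median of -0.02. MT-CO1, the catalytic subunit of complex IV, read 11248 with CTNNB1 siRNA and 9393 with control siRNA (0.26). MT-ATP6, the proton channel subunit of complex V, read 9701 and 7776 (0.32), and MT-ND2, a membrane subunit of complex I, read 8147 and 6674 (0.29). MT-ND6, the only protein gene on the other strand of mitochondrial DNA, had the lone lower ratio, at 228 with CTNNB1 siRNA and 322 with control siRNA (-0.50), and it stayed below 0 in every setting, from -0.68 to -0.36. Its signal was also the dimmest of the 7.

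Assembly factors outside the naming rule had a median of 0.07, with 49 of 50 entering, 27 above 0 and 22 below. Among all entering genes 64% were above 0. After loess 16 were above 0 and 33 below, with a median of -0.16. NUBPL, which delivers iron-sulphur clusters to complex I, read 359 with CTNNB1 siRNA and 173 with control siRNA, a 2.08-fold difference. The log2 ratio of 1.06 came under the 2-fold rule after loess (0.90), quantile normalization (0.90) and centring (0.91). SCO1, a copper chaperone of complex IV, read 917 with CTNNB1 siRNA and 514 with control siRNA (0.84). UQCC2, an assembly factor of complex III, read 40.8 and 74.5 (-0.87) and passed 2-fold lower when ratios were centred (-1.02), and ATPAF2, of complex V, read 62.4 and 107 (-0.78) with a second probe set at 0.12. Both of these were dim.

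Electron carriers lay near the median of all genes. Of 15 genes for cytochrome c, ubiquinone synthesis and electron transfer flavoproteins, 9 were above 0, 6 below, none passed 2-fold, and the median was 0.18. Among all entering genes 64% were above 0, 2.29% were at least 2-fold higher and 2.38% at least 2-fold lower. After loess 5 were above 0 and 10 below. CYCS, the cytochrome c gene, read 9139.5 with CTNNB1 siRNA and 7080.2 with control siRNA (0.37), although a dimmer probe set gave -0.32. ETFA, of the electron transfer flavoprotein, read 4719 and 3381 (0.48), and COQ5 and COQ2, of ubiquinone synthesis, had 0.37 and 0.36. Among 18 entering regulators of respiratory genes 13 were above 0, where 64% of all genes were. Their median was 0.26 and none passed 2-fold. After loess 10 were above 0, where 47.4% of all genes were, with a median of 0.07. GABPA, the DNA-binding subunit of GABP, whose ETS motif was searched above, read 1274 with CTNNB1 siRNA and 790.2 with control siRNA (0.69), and its other probe set gave 0.82. PPRC1, a coactivator related to PGC-1, read 793 and 508 (0.64).

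**Figure D5:**
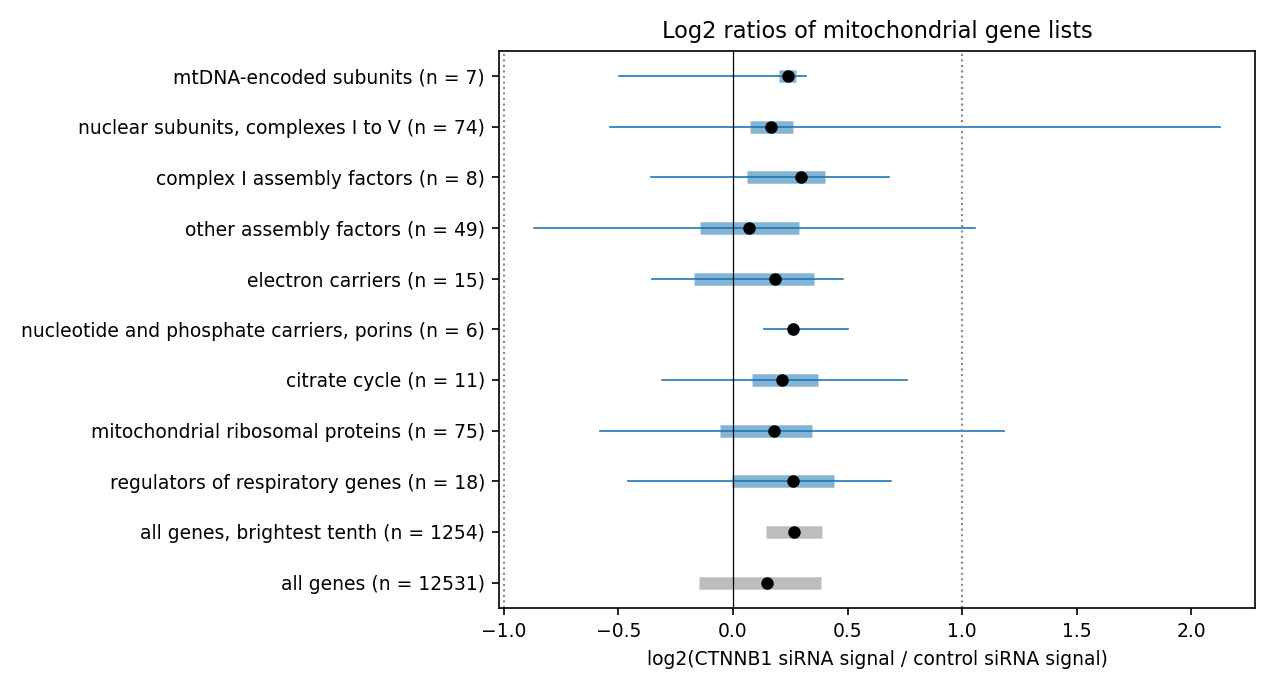
Log2 ratios (horizontal axis) of the respiratory and mitochondrial gene lists, with the number of entering genes. Black points are medians, thick bars the interquartile range and thin lines the full range, which is not drawn for all genes; all list medians lie between 0.07 and 0.30.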

How the data were processed

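RNA of 2 HCC15 cultures was measured on 1 Affymetrix array each, 1 per group, as given by the treatment labels. The authors made the deposited signal intensities with MAS5, per the submitters' processing notes; its version and scaling target are not given in sources used here. Names came from GEO's platform annotation (42898 of 54675 listed, 41097 with 1 symbol and 1801 with several), and symbols were updated through Entrez numbers to RefSeq for 41043. Another 15 probe sets that share a symbol of the set with other genes were left out.

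From the deposited intensities, values under the 25th percentile (13.8) were set to that floor, log2 ratios were taken as CTNNB1 siRNA over control siRNA, and probe sets with a mean signal under the median (49.1) were left out, which kept 27151. The brightest entering probe set stood for its gene. No p-value is possible with 1 array per group, and the number of arrays limits the precision. Alternatives were quantile normalization, loess (lowess span 0.3), a common median, centring, other floors and filters, other choices of probe set and a 1.5-fold rule. The calculations (Python 3.11.15, pandas 2.3.3, statsmodels 0.14.6) were tested on simulated arrays. The genes, lists and rules were chosen with earlier results of these data known. Named were all genes past 2-fold, the 3 largest ratios and the brightest gene of each complex, complex IV isoforms, and up to 4 genes of each other list; core subunits of complex I, ATP5MF, ATP5IF1 and COX7A2L were added for their roles, and NDUFA3, the other assembly factors, ATP5F1A, ATP5F1B, ATP5MC1 and ATP5MC3 after their values were seen. Promoter and microRNA sequences are from RefSeq, GRCh38.p14.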

Additional observations from a re-analysis of the deposited data

How the results depend on the processing

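The floor, both signal filters and both choices of probe set moved no group median by 0.1 or more on the log2 scale, whereas the scaling between arrays did. After quantile normalization the medians turned to -0.0804 for complex I, -0.0493 for complex II, -0.105 for complex III, -0.0715 for complex IV and -0.0122 for complex V, and the complex I assembly factors came to 0.0697. After loess they turned to -0.0924, -0.0504, -0.103, -0.0979 and -0.0437 in the same order, with the assembly factors at 0.0718. With a common median they were 0.29, 0.36, 0.31, 0.28 and 0.33, with the assembly factors at 0.43. Centring on the median ratio gave 0.0076, 0.0764, 0.0228, -0.0043 and 0.0471, with the assembly factors at 0.15. The median of all genes moved with them, and the share of genes at least 2-fold higher ran from 1.3% (centring) to 3.77% (common median), against 3.58% and 1.46% at least 2-fold lower. The cause was not tested. The count of genes at least 2-fold higher was 1 in all settings except the filter at the 75th percentile (0, since COXFA4L3 did not enter) and the 1.5-fold rule (2). The count at least 2-fold lower was 0 except without a filter (1, COX7B2, from dim signals) and without _x_at and _s_at probe sets (1, ATP5PB, then read by its dim probe set). No paired analysis was possible because each group was 1 array, and no replicate could be left out. Signals near the floor carry little information, so the dim isoforms of complex IV have no readable ratio here.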

Other observations

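Mitochondrial genes outside the respiratory chain lay close to it. Mitochondrial ribosomal proteins translate the subunits encoded in mitochondrial DNA. Of 77 genes for them 75 entered, 52 were above 0 and 23 below, with a median of 0.18. The share of all entering genes above 0 was 64%. After loess the split was 27 above and 48 below, with a median of -0.09. MRPL38, of the large subunit, was 2.27-fold higher with CTNNB1 siRNA, at 457 against 201 (1.18), and came just under 2-fold after quantile normalization (0.996). MRPS18B, of the small subunit, read 4641 with CTNNB1 siRNA and 2882 with control siRNA (0.69), with 0.65 from its second probe set, and MRPS5 read 2301 and 1470.1 (0.65), with 1.13 from its second.

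Genes of the citrate cycle, which supplies NADH and succinate to complexes I and II, had a median of 0.21 over 11 genes. Of the 11, 9 were above 0 and 2 below, and none passed 2-fold. Of all entering genes 64% were above 0, 2.29% at least 2-fold higher and 2.38% at least 2-fold lower. After loess 5 were above 0 and 6 below, with a median of -0.02. DLST, a subunit of the 2-oxoglutarate dehydrogenase complex, read 694 with CTNNB1 siRNA and 409.7 with control siRNA (0.76). MDH2, the mitochondrial malate dehydrogenase, read 7619 and 5786 (0.40). Of 7 genes of nucleotide and phosphate carriers and porins 6 entered, all 6 above 0, from 0.14 to 0.50, and 5 of 6 above 0 after loess. By comparison, 89.8% of the top signal decile of all genes were above 0 as deposited, and 47.4% of all genes after loess. SLC25A4, an adenine nucleotide carrier, had the largest ratio at 1059.8 with CTNNB1 siRNA and 749 with control siRNA (0.50), and the porin gene VDAC1 read 7435 and 6231 (0.25).

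The pseudogenes and noncoding transcripts caught by the naming rule were dim. NDUFV1-DT, a noncoding transcript that starts beside NDUFV1 in the opposite direction, read 101 with CTNNB1 siRNA and 134.0 with control siRNA (-0.41) and stayed below 0 in every setting in which it entered. The pseudogene ATP5MC2P1 read 213 and 212 (0.00), NDUFB2-AS1 read 53.4 and 51.2 (0.06), and COX6A1P1 and NDUFV2-AS1 did not enter.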
